A study of Mus musculus with 12 samples.

Results

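The genes described here are 51 genes of cilium transport and of the motile cilium, of 27179 genes counted in RNA sequencing of mouse embryonic dorsal cortex. The rule that picks them reads gene symbols and no measured value. The primary cilium class held 25 genes: 14 named Ift, 8 named Bbs and 3 named Tctn. The motile axoneme class held 26 genes: 15 named Dnah, 3 named Dnaic1, Dnaic2 and Dnali1, and 8 named Rsph. The members lie on 17 chromosomes.

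A cilium is a microtubule-based projection of the cell surface. Intraflagellar transport trains, built from the IFT-A and IFT-B complexes, carry cargo along the microtubules of every cilium, the BBSome moves membrane proteins out of it, and tectonic proteins are part of the transition zone that gates its base. Almost every cell of the early cortex, radial glia and neurons alike, can carry a single primary cilium, which receives Hedgehog and other signals. Motile cilia also need axonemal dynein arms, which bend the shaft, and radial spokes, which regulate the arms. In the embryonic forebrain motile cilia are known from the choroid plexus, and ependymal cells acquire them later.

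The study compared Ash2l cKO embryos with WT embryos, all of the C57BL/6 strain, at embryonic days E16.5 and E14.5, with 3 libraries per genotype and age. ASH2L belongs to the core of the COMPASS histone methyltransferases, which act on H3K4, and the series title points to Wnt signalling in cortex formation. The deletion was driven by D6-Cre, a transgene active in the dorsal telencephalon, so cells that Cre does not reach, such as blood vessel cells, can keep the gene. The labels do not say whether the WT embryos carried Cre or floxed alleles. Each library is called by its genotype and a letter from A to C, which stands for the first number in its title at that age. What that number marks, and whether a library is 1 embryo, is not given in the labels. The p-values here therefore rest on the spread of libraries alone, part of which may be technical.

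Counts assigned to genes totalled 14318147 to 24719047 per library. Levels are given as CPM, counts scaled to library size, and as RPKM, CPM per kilobase of exon, where genes are compared with each other. Ash2l itself averaged 58.1 ± 3.31 CPM in cKO and 133 ± 3.56 CPM in WT libraries at E16.5 (SD, n = 3 each), a log2 fold change of -1.20 (adjusted p = 8.19e-04, edgeR). At E14.5 it averaged 52.8 ± 6.61 CPM in cKO and 129 ± 12.9 CPM in WT libraries (SD, n = 3 each), a log2 fold change of -1.28 (adjusted p = 0.0124). All 7 dorsal telencephalon markers were detected, with summed levels of 1513 to 1785 CPM in cKO and 1816 to 1954 CPM in WT at E16.5, and of 1623 to 2095 CPM in cKO and 1952 to 2262 CPM in WT at E14.5. Libraries WT C at E16.5 and WT A at E14.5 stood apart: 10 choroid plexus markers summed to 652 and 509 CPM there, against at most 67.3 CPM in the other 10 libraries. Results that rest on them are given with and without them. At E14.5 all 3 cKO libraries had Xist and all 3 WT libraries had Y-linked transcripts, so genotype and sex cannot be told apart there. At E16.5 cKO C and WT A were the libraries with Xist.

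The classes lay at different levels. Over the 12 libraries, the 25 primary cilium members ran from 2.53 RPKM (Bbs10) to 22.2 RPKM (Ift27), with a median of 10.8 RPKM. The 26 motile axoneme members ran from 0.0250 RPKM (Rsph14) to 4.79 RPKM (Rsph9), with a median of 0.253 RPKM, and 20 of them stayed under 1 RPKM. Only Rsph9 and Rsph3a (4.37 RPKM) were above the lowest primary cilium member. By family the median was 14.4 RPKM for Ift, 8.32 for Bbs, 8.16 for Tctn, 0.193 for Dnah, 0.202 for Dnaic1, Dnaic2 and Dnali1, and 1.13 for Rsph. The low motile levels limit what a test could detect: 7 of the 26 motile members did not pass the filter on low counts at E16.5, and 8 did not at E14.5, while all 25 primary cilium members passed at both ages.

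**Figure D1:**
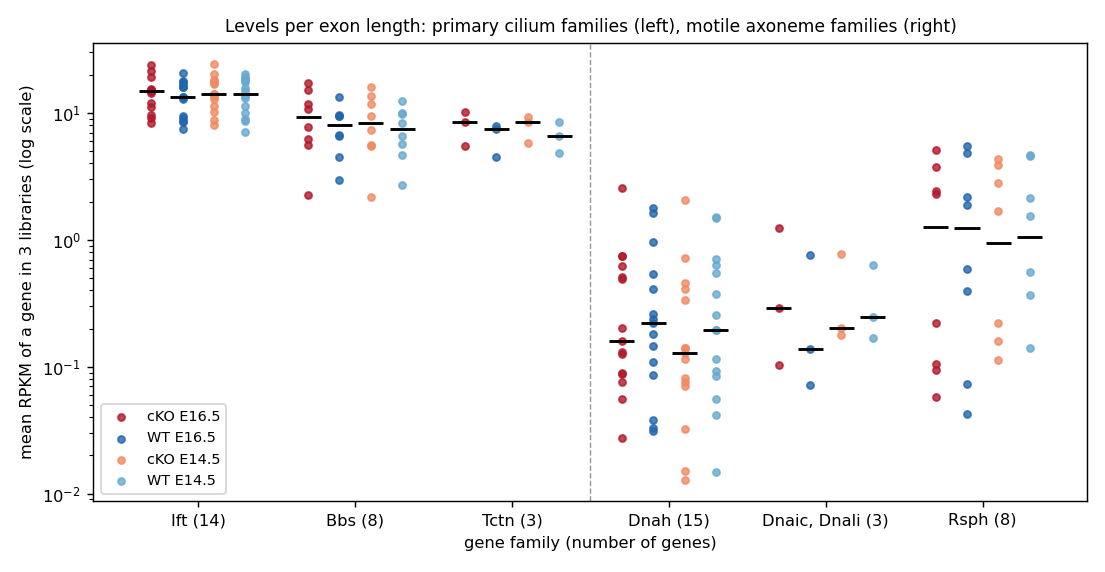
Mean RPKM of each gene in the 3 libraries of a group (log scale) by family, for cKO and WT at E16.5 and then at E14.5; black lines are family medians. The 3 primary cilium families have medians over all libraries of 8.16 to 14.4 RPKM and the motile families of 0.193 to 1.13 RPKM; Rsph14, at 0 in both E14.5 groups, cannot be drawn there on a log axis.

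Of the genes with the highest level in each family, Dnah9 was called at E16.5 and the others were called at neither age. Ift27, a small GTPase of IFT-B, had 24.9, 23.9 and 23.3 CPM in cKO libraries A to C, against 22.6, 21.1 and 18.6 CPM in WT at E16.5. Bbs4, a BBSome subunit, had 39.2, 39.0 and 36.4 CPM in cKO, against 32.5, 36.0 and 33.4 CPM in WT. Tctn1, a tectonic protein, had 18.3, 17.0 and 16.7 CPM in cKO, against 16.3, 17.1 and 14.8 CPM in WT. The groups did not overlap for Ift27 and Bbs4 and overlapped for Tctn1. Among motile genes, Rsph9, a radial spoke head protein, had 5.37, 4.67 and 4.49 CPM in cKO, against 6.42, 4.76 and 4.41 CPM in WT. Dnaic2, an outer dynein arm intermediate chain, had 4.95, 3.27 and 2.44 CPM in cKO, against 2.12, 1.45 and 2.98 CPM in WT. Both overlapped between the groups. Dnah9, the highest of the Dnah genes at 1.94 RPKM, is described with the called genes.

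Loss of Ash2l at E16.5 went with higher levels of 2 primary cilium genes, Bbs9 and Tctn3, and with no call in the other direction. That was 2 of 25 members (8%) at an adjusted p under 0.05 in edgeR's quasi-likelihood test, while 15.9% of the 14865 genes tested were called, 5.98% higher and 9.88% lower. The median log2 fold change of the class was 0.19, ranging from -0.41 (Bbs10) to 0.84 (Bbs9), against a median of 0.02 over all genes. Of the 25 members, 20 had a positive value, as had 52.6% of all genes. All 3 cKO libraries were above all 3 WT libraries for 15 members and below them for 2, against 19.2% and 18.3% of all genes. By summed level the class had 844, 850 and 834 CPM in cKO libraries, against 721, 744 and 726 CPM in WT libraries, with no overlap. Markers of cell types differed between the same groups. The 8 radial glia markers summed to 1416 to 1872 CPM in cKO and 1247 to 1581 CPM in WT, with overlap. Of these, 2 of 8 were called higher (5 higher and 1 lower with the title number as a block). The 10 neuron markers summed to 4632 to 4847 CPM in cKO and 6085 to 6515 CPM in WT, with 6 of 10 called lower (9 with the block). No radial glia or neuron marker was at 0, and their part in the cilium gene values was not tested. In bulk tissue, fewer cells of a type and less RNA per cell cannot be told apart.

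Bbs9, a subunit of the BBSome core (gene 319845, chromosome 9, positions 22475715 to 22888280 of mm10, plus strand, 23 exons), had the largest log2 change of the class. It had 63.4, 58.3 and 54.8 CPM in cKO libraries A to C, against 33.8, 33.1 and 31.4 CPM in WT libraries at E16.5. Every cKO library was above every WT library, and the averages were 58.8 ± 4.32 CPM in cKO and 32.8 ± 1.24 CPM in WT (SD, n = 3 each). The log2 fold change was 0.84 (SE 0.0833, adjusted p = 0.00186), and the call held with each of the 6 libraries left out (highest adjusted p = 0.0162). The other BBSome subunits lay closer to WT: Bbs1, Bbs2, Bbs4 and Bbs7 had log2 values of 0.22, 0.19, 0.16 and 0.27 with no overlap between groups, and Bbs5 had -0.08 with overlap. None of these 5 was called. Bbs10 and Bbs12, chaperonin-like proteins that help assemble the BBSome, had opposite signs. Bbs10 had 5.96, 5.91 and 6.80 CPM in cKO, against 8.55, 8.02 and 8.05 CPM in WT (log2 -0.41, SE 0.135, adjusted p = 0.0808). Bbs12 had 12.4, 14.6 and 13.8 CPM in cKO, against 8.76, 12.4 and 11.8 CPM in WT (log2 0.30, adjusted p = 0.234).

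Tctn3, a tectonic protein of the transition zone (gene 67590, chromosome 19, positions 40596446 to 40612215 of mm10, minus strand, 14 exons), had 28.4, 30.1 and 25.4 CPM in cKO libraries, against 22.1, 20.3 and 18.2 CPM in WT libraries. The groups did not overlap, at 28.0 ± 2.42 CPM in cKO and 20.2 ± 1.99 CPM in WT (SD, n = 3 each). The log2 fold change was 0.46 (SE 0.111, adjusted p = 0.0284). When WT B, WT C or cKO B was left out the adjusted p became 0.0997, 0.0765 and 0.115, so the class had 1 call rather than 2 in those 3 fits, and 3 calls without cKO A or without cKO C. Tctn2 averaged 15.1 ± 0.694 CPM in cKO and 12.2 ± 1.61 CPM in WT (log2 0.31, adjusted p = 0.146; SD, n = 3 each), and Tctn1 had a log2 value of 0.10.

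No Ift gene was called at E16.5; 11 of the 14 had positive log2 values and the family median was 0.18. Ift80, an IFT-B protein, had the largest: 43.0, 51.2 and 52.1 CPM in cKO, against 34.3, 40.4 and 42.4 CPM in WT (log2 0.31, SE 0.114, adjusted p = 0.101). Its groups did not overlap. Each title number is shared by 1 cKO and 1 WT library. It was used as a block only as an alternative, since the pairing it gives at E16.5 is weak. With it 8 primary cilium members were called higher and 1 lower, where 14.3% of all genes were called higher and 17.9% lower. Those higher were Bbs9 (adjusted p = 2.88e-05), Tctn3 (0.00315), Ift80 (0.00715), Ift46 (0.00783), Ift172 (0.0234), Ift88 (0.0272), Ift140 (0.0291) and Bbs7 (0.0327). Ift46, Ift80, Ift88 and Ift172 are IFT-B proteins and Ift140 is an IFT-A protein. Their log2 values in that fit were 0.27 for Ift46, 0.31 for Ift80, 0.27 for Ift88, 0.23 for Ift172, 0.19 for Ift140 and 0.27 for Bbs7. The member called lower was Ift52, an IFT-B core protein, with 26.2, 31.8 and 36.1 CPM in cKO, against 36.2, 35.7 and 41.5 CPM in WT (log2 -0.28, adjusted p = 0.0280 with the block and 0.183 without it). The Ift52 groups overlapped. With library totals alone as the scale, 4 primary cilium members were called higher, when 7.82% of all genes were. DESeq2 called 2 primary cilium and 5 motile members, when it called 17.2% of all genes.

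**Figure D2:**
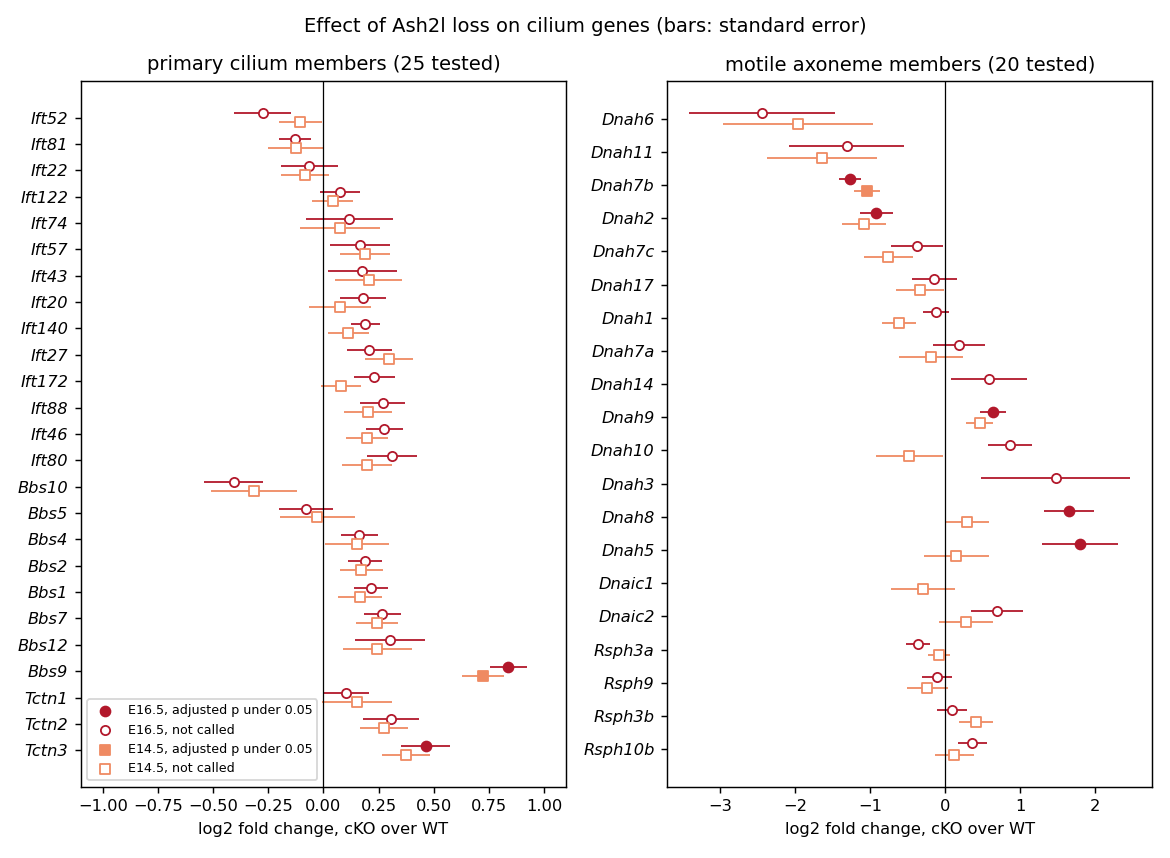
Log2 fold change of cKO over WT for each tested gene at E16.5 (circles) and E14.5 (squares), with standard errors; filled symbols have an adjusted p under 0.05. Primary cilium genes lie between -0.41 and 0.84 with 20 of 25 right of 0 at each age, and motile axoneme genes spread from -2.44 to 1.79 at E16.5.

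The motile axoneme class moved in both directions at E16.5, and all 5 calls were dynein heavy chains. Dnah8, Dnah9 and Dnah5 were higher and Dnah7b and Dnah2 lower, which was 5 of 19 tested members (26.3%) where 15.9% of all genes were called. The class median was a log2 fold change of 0.09, with 10 of 19 values positive. It was 0.24 without the choroid-high library WT C, -0.042 without WT B, 0.010 without cKO A, 0.026 without cKO B, 0.054 without cKO C, -0.014 with DESeq2 and -0.0037 with no filter on low counts, so its sign is not settled. All 3 cKO libraries were above the WT libraries for 4 of the tested members and below them for 3, against 19.2% and 18.3% of all genes, which is near those shares. The summed level had 147, 113 and 98.2 CPM in cKO, against 105, 105 and 141 CPM in WT, with overlap.

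Dnah7b, an inner dynein arm heavy chain (gene 227058, chromosome 1, positions 46066738 to 46373550 of mm10, plus strand, 66 exons), had 8.08, 10.8 and 8.58 CPM in cKO libraries, against 19.9, 22.1 and 24.0 CPM in WT libraries. No library of the groups overlapped, and the averages were 9.17 ± 1.47 CPM in cKO and 22.0 ± 2.08 CPM in WT (SD, n = 3 each). The log2 fold change was -1.27 (SE 0.145, adjusted p = 0.00241), the call held with each library left out, and without the choroid-high library WT C it was -1.19 (adjusted p = 0.00970). Dnah7b has close copies: 48.4% of its 50-base exon windows occur also in Dnah7a or Dnah7c, so counts can be split or lost among the 3. Dnah7a had a log2 value of 0.19 and Dnah7c of -0.38, and neither was called. Summed over the 3 copies, the level was 12.8, 14.9 and 11.8 CPM in cKO and 23.1, 25.8 and 30.7 CPM in WT at E16.5, again with no overlap.

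Dnah2, a heavy chain of the inner arm (gene 327954, chromosome 11, positions 69420809 to 69549108 of mm10, minus strand, 86 exons), had 9.25, 6.74 and 4.89 CPM in cKO libraries, against 13.8, 13.6 and 12.1 CPM in WT libraries. The groups did not overlap and averaged 6.96 ± 2.19 CPM in cKO and 13.2 ± 0.924 CPM in WT (SD, n = 3 each). The log2 fold change was -0.92 (SE 0.217, adjusted p = 0.0270). It was lost without WT A (adjusted p = 0.0811), WT B (0.0959), WT C (0.0533) or cKO B (0.102), and with a sex term in a fit of all 12 libraries (0.0586). With the replicate block its adjusted p was 0.00141.

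Dnah8 (gene 13417, chromosome 17, positions 30626936 to 30875264 of mm10, plus strand, 93 exons), Dnah9 (gene 237806, chromosome 11, positions 65831324 to 66168551, minus strand, 69 exons) and Dnah5 (gene 110082, chromosome 15, positions 28203766 to 28472045, plus strand, 79 exons) are outer arm heavy chains; DNAH5 is a gene of human primary ciliary dyskinesia. Dnah8 had 15.5, 9.18 and 8.19 CPM in cKO, against 4.51, 2.09 and 3.75 CPM in WT libraries. Dnah9 had 39.4, 34.5 and 31.2 CPM in cKO, against 18.2, 20.3 and 28.8 CPM in WT. Dnah5 had 18.3, 6.85 and 4.23 CPM in cKO, against 3.40, 2.56 and 2.51 CPM in WT. For none of the 3 did the groups overlap, and cKO A was the highest library in each, for Dnah5 at over 2 times every other library. The log2 fold changes were 1.66 for Dnah8 (SE 0.332, adjusted p = 0.0153), 0.64 for Dnah9 (SE 0.178, adjusted p = 0.0479) and 1.79 for Dnah5 (SE 0.509, adjusted p = 0.0499).

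These 3 calls did not all hold when a library was left out. Dnah8 was lost without WT B (adjusted p = 0.0523). Dnah9 was lost without WT A (0.127), WT B (0.163), cKO A (0.0830), cKO B (0.130) or cKO C (0.0577), with the replicate block (0.0542) and in the fit of all 12 libraries (0.0517). Dnah5 was lost without WT A (0.105), WT B (0.156), WT C (0.132) or cKO B (0.0857), with another scaling (0.0504), with no filter on low counts (0.114) and with a sex term in the fit of 12 libraries (0.0690), while with the block its adjusted p was 0.00620. Without cKO A, its highest library, the log2 value of Dnah5 was 0.97 (adjusted p = 0.0354). The whole motile class had 2 calls without WT A, 1 without WT B, 3 without the choroid-high library WT C and 2 without cKO B.

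**Figure D3:**
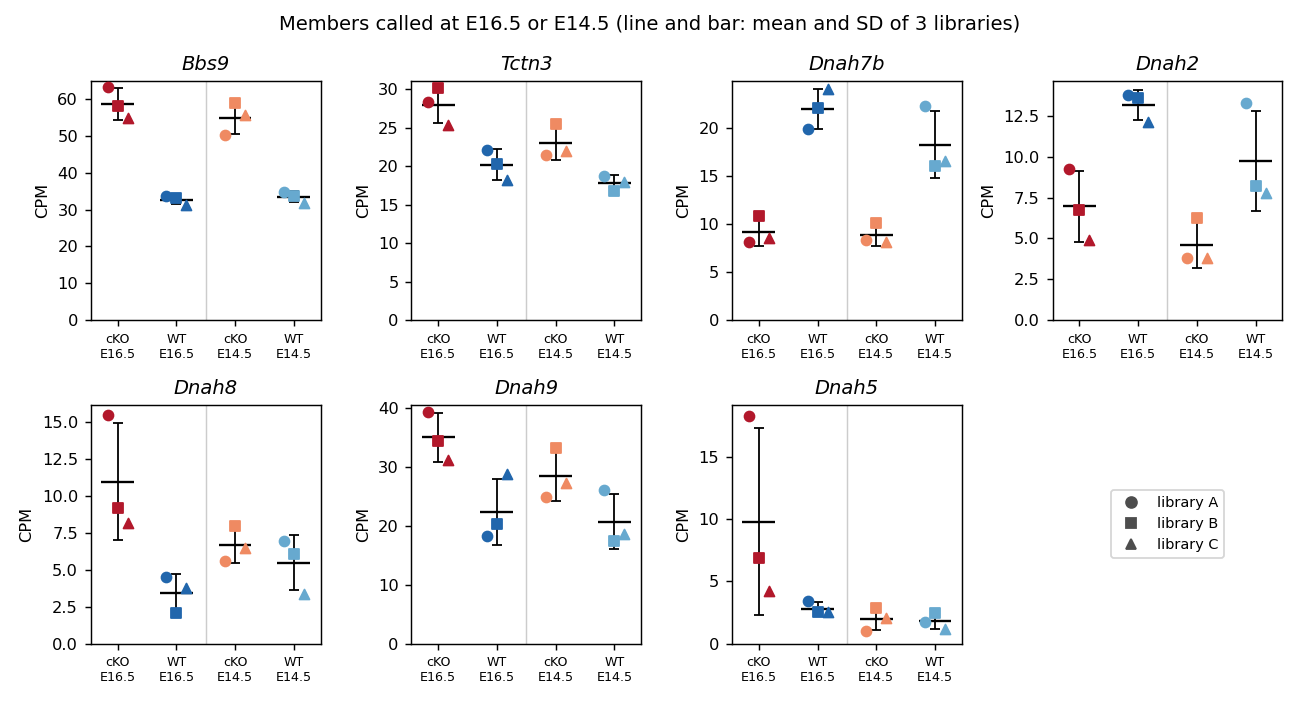
CPM in each library of the 7 members called at either age, with cKO left of WT at E16.5 and then at E14.5; lines and bars are the mean and SD of 3 libraries. At E16.5 no group overlaps its WT group for any of the 7, and at E14.5 Bbs9, Tctn3, Dnah7b and Dnah2 are also separate while Dnah8, Dnah9 and Dnah5 overlap.

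The largest motile log2 value that was not called came from 1 WT library. Dnah6, an inner arm heavy chain, had 1.28, 0.83 and 0.79 CPM in cKO, against 1.17, 1.22 and 13.3 CPM in WT at E16.5, where its log2 fold change was -2.44 (SE 0.973, adjusted p = 0.130). Without WT C it was -0.30. Dnah3, also of the inner arm, had 2.23, 0.93 and 0.07 CPM in cKO, against 0.11, 0.17 and 0.87 CPM in WT (log2 1.48, adjusted p = 0.350). Its groups overlapped, and its log2 value was 0.43 without cKO A and 2.93 without WT C, with no call in either fit. Among the other tested dynein genes, Dnah10 was at 2.24 ± 0.608 CPM in cKO and 1.22 ± 0.148 CPM in WT with no overlap (log2 0.86, adjusted p = 0.0856; SD, n = 3 each). The 4 radial spoke genes that were tested, Rsph3a, Rsph3b, Rsph9 and Rsph10b, had log2 values between -0.36 (Rsph3a) and 0.36 (Rsph10b) and none was called. Rsph3a and Rsph3b share 74.0% and 73.4% of their windows, and their sum was 11.1 ± 1.54 CPM in cKO and 12.9 ± 1.07 CPM in WT (SD, n = 3 each). Dnah12, Dnaic1, Dnali1, Rsph1, Rsph14, Rsph4a and Rsph6a did not pass the filter, and Rsph14 had 0 to 3 counts in every library.

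WT C at E16.5 and WT A at E14.5 were the highest libraries for many motile genes. Of the 23 motile members with at least 10 counts in a library of E16.5, WT C was the highest library for 8 (34.8%), against 12.5% of all genes and 2 of the 25 primary cilium members. It was over 2 times every other library of its age for Dnah6, Dnah11, Rsph1 and Rsph4a, which is 17.4% of those members, against 0.788% of all genes and no primary cilium member. At E14.5 WT A was the highest library for 13 of 24 motile members (54.2%), against 10.9% of all genes, and over 2 times every other for Dnah3, Dnah6, Dnah11, Dnah12, Rsph1 and Rsph4a, against 0.831% of all genes. These are the libraries with the choroid plexus markers, where Ttr, a transthyretin gene that choroid plexus epithelium makes in large amounts, stood at 572 CPM (WT C, E16.5) and 429 CPM (WT A, E14.5), against 5.26 to 51.8 CPM elsewhere. Dnah6 had 17.9 CPM in WT A at E14.5, against 1.13, 1.88 and 2.30 CPM in cKO. Dnah11, an outer arm heavy chain, had 7.18 CPM in WT C at E16.5 and 8.05 CPM in WT A at E14.5, against 0.73 to 1.87 CPM elsewhere. The spoke head gene Rsph4a had 3.33 and 3.05 CPM in these libraries, against 0.13 to 0.74 CPM elsewhere, and Rsph1 had 1.49 and 1.65 CPM, against 0.05 to 0.41 CPM. None of the 10 choroid plexus markers was at 0 in every library. A different library, cKO A at E16.5, where the choroid plexus markers were not high, was over 2 times every other for Dnah3 and Dnah5. That was 8.7% of the 23 motile members, against 0.832% of all genes. It was the highest library for 9 of the 23 (39.1%), against 23.6% of all genes and 10 of the 25 primary cilium members (40%). Genes entered the counts of this paragraph by reaching 10 counts in any 1 library of the age. A weakly expressed member such as Rsph1 can enter only through the library where it is high. The shares are therefore a description only.

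**Figure D4:**
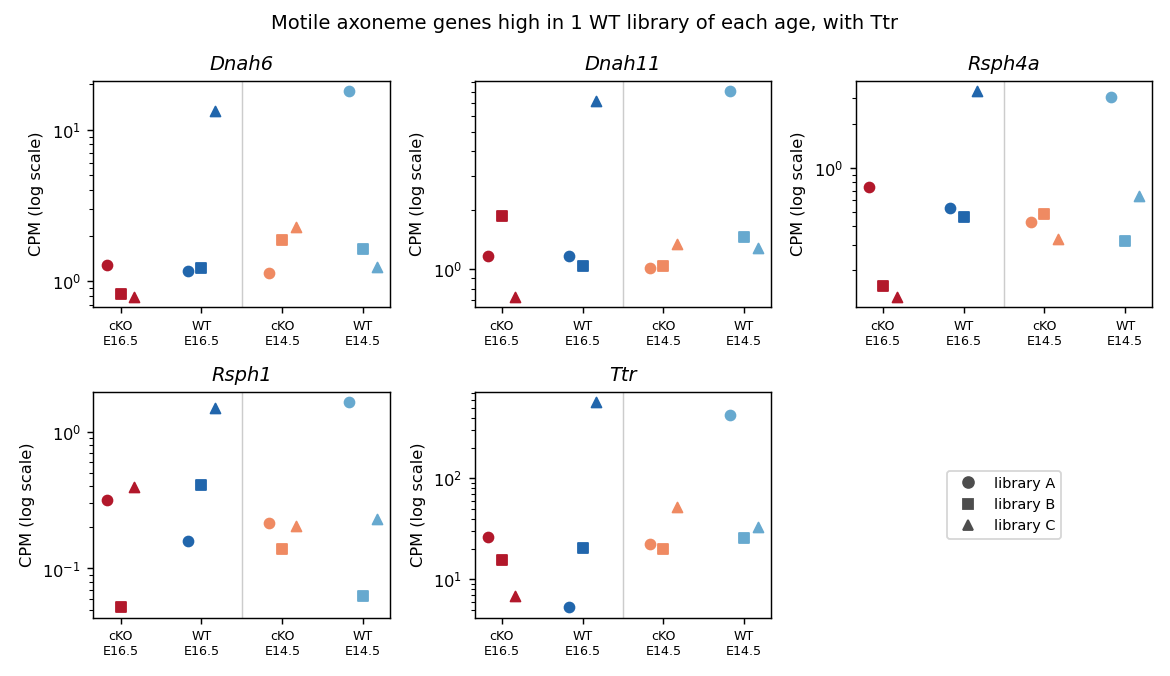
CPM (log scale) of 4 motile axoneme genes and of the choroid plexus gene Ttr in each library, cKO left of WT at each age. Libraries WT C at E16.5 and WT A at E14.5 are the highest for all 5 genes, with Ttr at 572 and 429 CPM there and at 5.26 to 51.8 CPM in the others.

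The 2 members called at E14.5 were Bbs9 and Dnah7b, which were also called at E16.5. Of the 14788 genes tested at E14.5, 2.01% were called, 0.352% higher and 1.66% lower. Bbs9 had 50.3, 59.1 and 55.7 CPM in cKO, against 34.9, 33.8 and 31.9 CPM in WT libraries (log2 0.72, SE 0.0957, adjusted p = 0.0217), with no overlap. Dnah7b had 8.29, 10.1 and 8.09 CPM in cKO, against 22.2, 15.995 and 16.6 CPM in WT (log2 -1.04, SE 0.173, adjusted p = 0.0375), with no overlap. The 3 Dnah7 copies summed to 11.2 ± 1.90 CPM in cKO and 21.7 ± 4.31 CPM in WT (SD, n = 3 each). Both calls were lost in 5 of the 6 fits that left out a library. The adjusted p of Bbs9 was then 0.0601 without WT A, 0.0690 without WT B, 0.139 without WT C, 0.0586 without cKO B and 0.160 without cKO C. That of Dnah7b was 0.0722 without WT A, 0.0806 without WT B, 0.148 without WT C, 0.0631 without cKO B and 0.180 without cKO C. The log2 values stayed between 0.67 and 0.75 for Bbs9 and between -1.15 and -0.88 for Dnah7b in those fits. With a sex term in the fit of 12 libraries, Bbs9 had an adjusted p of 0.0328 and Dnah7b of 0.115. That term is estimated from the E16.5 libraries alone, because sex and genotype coincide at E14.5. It therefore cannot separate sex from genotype at E14.5. DESeq2 called 1 primary cilium and 2 motile members, Bbs9, Dnah7b and Dnah2, when it called 8.02% of all genes. Meningeal markers summed to 331 CPM in cKO A (at most 43.0 CPM elsewhere) and ventral telencephalon markers to 302 CPM in WT B. Without those 2 libraries Bbs9 had a log2 value of 0.78 (adjusted p = 0.0130) and Dnah7b of -1.11 (adjusted p = 0.0230).

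The primary cilium class as a whole had a median log2 fold change of 0.17 at E14.5, and again 20 of 25 members had positive values, as had 53.9% of all genes. All 3 cKO libraries were above WT for 8 members and below for 1, against 11.9% and 14.8% of all genes. Tctn3 had 21.5, 25.5 and 22.0 CPM in cKO, against 18.7, 16.8 and 18.0 CPM in WT (log2 0.37, adjusted p = 0.126), with no overlap. Ift27 averaged 24.9 ± 2.02 CPM in cKO and 20.4 ± 1.07 CPM in WT (log2 0.30, adjusted p = 0.195; SD, n = 3 each), also with no overlap. Radial glia markers summed to 1944 to 2071 CPM in cKO and 1696 to 1805 CPM in WT, and neuron markers to 2313 to 4182 CPM in cKO and 4005 to 5798 CPM in WT. Of the 8 radial glia markers 0 were called, and of the 10 neuron markers 1 was called lower. Their part in the values was not tested at this age either. The class sum was 785, 853 and 810 CPM in cKO and 774, 697 and 746 CPM in WT, again without overlap.

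For the motile class at E14.5 the median log2 fold change over 18 tested members was -0.27, against 0.03 over all genes, and 6 values were positive. Without the choroid-high library WT A that median was -0.09, without cKO A it was -0.13 and without cKO B it was -0.56. It was -0.085 without the meninges-high and ventral-high libraries. With a sex term in the fit of 12 libraries, estimated from E16.5 libraries alone, the motile median was 0.0055. Without WT A Dnah6 had a log2 value of 0.31 rather than -1.96. Dnah2 had 3.82, 6.27 and 3.78 CPM in cKO, against 13.3, 8.22 and 7.75 CPM in WT (log2 -1.08, adjusted p = 0.108). The 13.3 CPM was in the choroid-high library WT A. Over the fits with a library left out, the log2 value of Dnah2 lay between -1.35 and -0.79. Its groups did not overlap. Dnah8 had 5.60, 7.95 and 6.44 CPM in cKO, against 6.95, 6.07 and 3.37 CPM in WT. Dnah9 had 24.9, 33.2 and 27.3 CPM in cKO, against 26.1, 17.4 and 18.6 CPM in WT. Dnah5 had 1.02, 2.86 and 2.09 CPM in cKO, against 1.75, 2.47 and 1.20 CPM in WT. These 3 overlapped between the groups and had log2 values of 0.29 for Dnah8, 0.46 for Dnah9 and 0.15 for Dnah5.

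Across ages, the 25 primary cilium members had the same sign at E16.5 and E14.5, as had 15 of the 17 motile members tested at both. The share of all genes with the same sign was not computed, so these counts are not shown to be particular to the members. The 2 comparisons use different libraries, and at E14.5 genotype and sex cannot be told apart. No member was called in the test of the difference between the cKO effects (E16.5 minus E14.5, 12 libraries, edgeR), nor was any of the 15338 genes, of which 318 had an unadjusted p under 0.05; DESeq2 called 0 as well. Before adjustment 4 motile members and no primary cilium member passed 0.05. The 4 had log2 differences of 2.30 for Dnaic1, 1.38 for Dnah8, 1.35 for Dnah10 and 1.65 for Dnah5, all positive. The test thus did not show that the changes of Dnah8, Dnah9 and Dnah5 differed between the ages. On simulated data it recovered only 1.49% of 1.5-fold and 34.3% of 2-fold differences.

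Between E16.5 and E14.5 WT libraries no member was called in edgeR, when 2.15% of all genes were, and none was in DESeq2, which called 13.3% of all genes. The median log2 change was -0.0035 for the primary cilium class and 0.11 for the motile class. The motile median was 0.13 with both choroid-high libraries left out (an alternative chosen after seeing the data), but 0.48 without WT A of E14.5 alone and -0.014 without WT C of E16.5 alone. It was 0.0095 without WT B and -0.042 without WT C of E14.5, 0.19 without WT A and 0.24 without WT B of E16.5, and 0.21 with a sex term, so its sign is not settled. Before adjustment 1 primary cilium member, Ift74 (log2 -0.54), and 2 motile members, Dnah10 (log2 -1.18) and Dnaic1 (log2 -1.73), passed 0.05, out of 46 members tested, as did 4252 of all 15338 genes. Age and any difference in the making of the 2 sets of libraries cannot be told apart.

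The same pathways hold genes with other symbols, listed with earlier results of these data known. None of them was called at E14.5, where the 2 genes with the highest level of each list had log2 values between -0.31 (Kifap3) and 0.42 (Arl6). The list of other axoneme parts had a median of -0.38 there, with 8 of 31 tested values positive. All 3 cKO libraries were below WT for 7 of them and above for 0, against 14.8% and 11.9% of all genes. Its lowest value was -2.78 for Cfap43, which had 7.90 CPM in the choroid-high library WT A and 0.07 to 0.90 CPM in the other E14.5 libraries. Among 19 other IFT and IFT motor genes, 1 was called at E16.5: Traf3ip1, the IFT-B protein also called IFT54, averaged 32.2 ± 0.241 CPM in cKO and 24.7 ± 2.33 CPM in WT (SD, n = 3 each; log2 0.38, adjusted p = 0.0301). The list had a median log2 value of -0.04. With the replicate block 2 were called higher and 1 lower. Over all genes tested at E16.5, 5.98% were called higher and 9.88% lower, and 14.3% and 17.9% with the block. Of 6 BBSome partners none was called at E16.5. Cct2, a chaperonin subunit, had a log2 value of 0.02. Arl6, the GTPase that recruits the BBSome to membranes, had 17.4, 21.4 and 22.6 CPM in cKO, against 11.9, 15.9 and 17.5 CPM in WT (log2 0.43, adjusted p = 0.123, and 0.00764 with the replicate block, when 2 of the 6 were called).

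In the transition zone outside the tectonic genes, 1 of 17 genes was called lower at E16.5 and none higher (1 higher and 3 lower with the block). The shares of all genes were 9.88% lower and 5.98% higher (17.9% and 14.3% with the block). Cc2d2a averaged 27.9 ± 1.63 CPM in cKO and 36.0 ± 2.18 CPM in WT (SD, n = 3 each; log2 -0.38, adjusted p = 0.0247). Among 14 ciliary membrane and signalling genes, Kif7, a kinesin of Hedgehog signalling, averaged 24.8 ± 1.19 CPM in cKO and 15.99 ± 2.24 CPM in WT (log2 0.63, adjusted p = 0.0145). Adcy3, the adenylyl cyclase of neuronal cilia, averaged 17.5 ± 0.444 CPM in cKO and 28.7 ± 1.84 CPM in WT (log2 -0.72, adjusted p = 0.00308; SD, n = 3 each). Of these, Adcy3 kept its call with each library left out, while Kif7 lost it without cKO B (0.0667).

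Among motile regulators and centriole genes, 2 of 16 tested were called higher at E16.5 (4 with the block). They were Cep152 (log2 0.37, adjusted p = 0.0225) and Cep63 (log2 0.41, adjusted p = 0.0465), both scaffold proteins of centriole duplication. Of all genes, 5.98% were called higher and 9.88% lower (14.3% and 17.9% with the block). Foxj1, the transcription factor that drives motile cilium genes, had a log2 value of 0.30 and was not called. None of 11 tested dynein assembly factors was called (1 with the block), and the highest of them, Ruvbl2 and Ruvbl1, had log2 values of 0.01 and 0.03. Of 31 tested genes for other axoneme parts, Cfap74 averaged 8.95 ± 0.115 CPM in cKO and 5.29 ± 1.03 CPM in WT (log2 0.75, adjusted p = 0.0231; SD, n = 3 each). Cfap70 averaged 1.04 ± 0.271 CPM in cKO and 2.55 ± 0.782 CPM in WT (log2 -1.29, adjusted p = 0.0392; SD, n = 3 each). Traf3ip1, Cc2d2a, Cep152, Cep63, Cfap70 and Cfap74 lost their calls in 3 to 6 of the 6 fits that left out a library, with adjusted p from 0.0506 to 0.135.

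RefSeq promoters of GRCm38.p6, 250 bases before to 50 after a gene's start, were at hand for 44 of the 51 members. RFX factors, which drive ciliary genes, bind half-sites of the letters GTTGCC, often as an inverted pair. Searched on both strands, the half-site was in 11 of 22 primary cilium promoters (50%) and 6 of 22 motile promoters (27.3%), against 14.1% of all 27025 genes with a promoter. The pair (GTTGCC or GTTACC, 0 to 3 bases, then GGCAAC or GGTAAC) was in 3 of 22 primary cilium promoters (13.6%) and in no motile promoter, against 0.477% of all genes. The forkhead core TGTTTA was in 2 primary cilium promoters (9.09%) and 6 motile promoters (27.3%), against 15.1% of all. The 6 motile promoters with a half-site include the close copies Dnah7a, Dnah7b and Dnah7c. In the motile lists of genes with other symbols, half-site shares were 41.2% for regulators and centriole genes, 48.6% for other axoneme genes and 60% for assembly factors (6 of 10). Forkhead shares in those lists were 5.88%, 11.4% and 10%. Counted by promoter rather than by gene, the median GC share was 57.3% over 22 primary cilium promoters. It was 54.7% over 23 motile promoters and 52.7% over all 32851 promoters. The promoter of Bbs9 held none of these letters in this window. The 3 pairs, shown because Tctn3 is a called member and they are the only pairs in either class, are given with flanking bases on the strand of the gene, with the pair in capitals.
Tctn3, chr19:40612344-40612386, minus strand: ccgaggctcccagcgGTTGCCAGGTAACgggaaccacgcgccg
Tctn1, chr5:122264411-122264439, minus strand: cgctaggctgtgactGTTGCCCGGGCAAC
Ift57, chr16:49699219-49699261, plus strand: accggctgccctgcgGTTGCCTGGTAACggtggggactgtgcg

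The promoter of Dnah7b, the dynein gene called lower at both ages, is shown whole because its copies are close and its sequence holds both a half-site and a wider inverted pair, both in capitals.
Dnah7b, chr1:46066603-46066902, plus strand: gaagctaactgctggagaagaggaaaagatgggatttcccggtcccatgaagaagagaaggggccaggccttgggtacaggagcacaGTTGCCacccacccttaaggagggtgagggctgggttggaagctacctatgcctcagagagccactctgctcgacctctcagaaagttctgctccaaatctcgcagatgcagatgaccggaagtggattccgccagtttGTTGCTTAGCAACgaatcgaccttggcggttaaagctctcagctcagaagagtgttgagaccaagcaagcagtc
The start used for this promoter lies 115 bases downstream of the first base of Dnah7b in the count annotation. For Dnah7c it lies 4465 bases downstream, so its window is inside the counted gene. The offset was -1892 for Dnah12 and -5129 for Dnah14, which is upstream. Of 45 promoters of members, 31 start at the first annotated base. A wider pair of the letters GTTGC, 2 to 5 bases and GCAAC was also searched in all promoters. That pattern was chosen after the Dnah7b sequence was read, so its count is a description only. It was in 6 of 22 motile promoters (27.3%) and 1 of 22 primary cilium promoters (4.55%), against 0.503% of all genes. The motile genes were Dnah6, Dnah7a, Dnah7b, Dnah7c, Dnaic2 and Rsph3b, and the primary cilium gene was Tctn1, whose narrower pair lies in the same bases. The copies Dnah7a, Dnah7b and Dnah7c have the same 13 letters. The windows of 5 of the motile genes let these be compared, with the wider pair in capitals; Rsph3b, whose pair lies after the start, is named only.
Dnah7b, chr1:46066814-46066856, plus strand: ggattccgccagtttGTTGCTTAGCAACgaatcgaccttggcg
Dnah7c, chr1:46425434-46425476, plus strand: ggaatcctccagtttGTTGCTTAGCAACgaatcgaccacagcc
Dnah7a, chr1:53706814-53706856, minus strand: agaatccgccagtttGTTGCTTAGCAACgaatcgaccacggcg
Dnah6, chr6:73221640-73221682, minus strand: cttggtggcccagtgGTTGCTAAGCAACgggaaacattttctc
Dnaic2, chr11:114727371-114727413, plus strand: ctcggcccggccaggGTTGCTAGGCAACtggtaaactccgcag
Among these genes Dnah7b was called lower at both ages, while Dnah7a, Dnah7c, Dnah6, Dnaic2, Rsph3b and Tctn1 were not called. A match is a description of the letters and shows neither binding nor its absence.

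The deposited comparison of the authors, DESeq2 tables with log2 fold changes of WT over KO, called the same members at E16.5. In the authors' deposited table Bbs9, Tctn3, Dnah8, Dnah9 and Dnah5 were higher and Dnah2 and Dnah7b lower in KO at an adjusted p under 0.05. At E14.5 the authors' deposited table called Bbs9 higher in KO, and Dnah7b and Dnah2 lower, so it adds Dnah2 to the calls of edgeR.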

How the data were processed

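RNA from E16.5 and E14.5 dorsal cortex was extracted with TRIzol, per the labels' protocols. Per the submitters' processing notes, the aligner was STAR 2.5.2b and the build mm10. The authors deposited raw counts per gene, made with featureCounts 1.5.2 over RefSeq exons, paired, with strand setting 2 and a minimum overlap of 25 bases, per the file headers; no multi-mapping option is recorded there. Exon lengths came from the deposited tables, per the file headers. The authors' deposited DESeq2 1.14.1 tables give log2 fold changes of WT over KO and adjusted p-values; their 12 columns of normalized values were not used.

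Each age was tested with edgeR 4.0.16 (R 4.3.3, limma 3.58.1; filterByExpr, TMM, robust quasi-likelihood), 3 libraries against 3, with Benjamini-Hochberg adjustment over all genes tested and a threshold of 0.05. Differences between ages came from 1 fit of 12 libraries. CPM use TMM sizes of all 12. DESeq2 1.42.0, other scalings, no filter, a replicate block, a sex term (Xist above 1000 counts) and each library left out were alternatives. The sex term rests on the E16.5 libraries, since sex and genotype coincide at E14.5. On simulated data the E16.5 fit recovered 38.8% of 1.5-fold and 70.1% of 2-fold changes, and 7.14% of its calls were false. The E14.5 fit recovered 11.9% and 62.7%, with 3.64% false calls. The age-difference test recovered 1.49% and 34.3%, with 8.43% false calls. At E16.5, libraries with the same first title number had deviations of log CPM (prior count 2) that correlated at 0.281, 0.21 and 0.112. Each library correlated best with its own number. A differently numbered pair, cKO B with WT C, reached 0.107, so the pairing is not firmly established. Replicates differed beyond counting noise (chi-square per degree of freedom 9.06 to 48.3). No member shares exon bases with another gene on its strand.

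Members and lists were chosen with earlier results of these data known. Members named with values are those called, the 4 largest changes of each class at E16.5, and the highest gene of each family; from each list, called genes, or the 2 highest where none was called. Others are named for calls under the block, for single-library levels or for an unadjusted p, and were chosen after their values were seen.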

Additional observations from a re-analysis of the deposited data

How the results depend on the processing

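Called members at E16.5 numbered 2 in the primary cilium class, 4 with library totals alone and 9 with the replicate block; leaving out each library gave 1 to 3. The motile class had 5 calls, and 1 to 5 with a library left out. At E14.5 the primary cilium class had 1 call, 0 to 1 with a library left out; the motile class had 1 call, 2 with DESeq2, 2 with 12 libraries in 1 fit, 0 with a sex term, and 0 to 1 with a library left out. The age difference gave 0 calls throughout, and the WT age change 0 to 1 in each class with a library left out. Over all genes, 2358 calls at E16.5 became 4790 with the block and 987 to 2855 with a library left out. At E14.5, 297 became 1279 with the block, 1336 with 12 libraries in 1 fit, 1194 with DESeq2, 128 with a sex term, 621 without the meninges-high and ventral-high libraries (an alternative chosen after seeing the data), and 5 to 66 with a library other than cKO A left out. The WT age change moved from 330 to 1961 with DESeq2, and to between 1 and 2216 with a library left out. The E14.5 counts with a sex term use a sex effect estimated from E16.5 libraries alone, so they do not separate sex from genotype.

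Signs turned in 6 fits of genes that were not called. Rsph9 at E16.5 was 0.070 without WT A, and lay between -0.21 and that value over the fits with a library left out. At E14.5 Dnah5 was -0.083 without WT C and -0.19 without cKO B (at most 0.45), Dnah6 was 0.31 without WT A (lowest -2.46), Bbs4 was -0.0024 without cKO B (at most 0.27), and Tctn1 was -0.061 without the meninges-high and ventral-high libraries. The cause was not tested. The E14.5 title numbers paired the libraries only in part: same-numbered deviations correlated at 0.272 (A), 0.304 (B) and -0.002 (C). Neither library C correlated best with its own number, and the block left 1 call in each class.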
